A study of Bos taurus with 14 samples.

Results

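The comparison followed the mammary gland of cows kept in long days as calving came near: 4 arrays of biopsies taken at day -9 were set against 3 arrays of biopsies taken at day -24, and every difference below is day -9 minus day -24. The members were set by the sample labels, and they are 7 of the 14 arrays of the series. This comparison and the gene lists were chosen with earlier results of these data known. No probe set passed an adjusted p of 0.05. Defence and acute phase genes had the highest median difference of the gene lists, 0.66 on the log2 scale. Genes of fatty acid oxidation, oxidative phosphorylation, lactose synthesis and mitosis lay nearly all above 0 by smaller amounts, and interferon response genes lay mostly below 0. Genes of the caseins and of beta-lactoglobulin differed by -0.10 to 0.13. Those of beta-casein and beta-lactoglobulin lay near the highest signals in the data.

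The animals were dry Holstein cows, no longer milked ahead of a new lactation, and per the labels drying off took place about 60 d before calving was due. Chance decided which cows spent this time in long days (LD, with 16 h light and 8 h dark) and which in short days (SD, with 8 h light and 16 h dark). Both LD groups used here received the long day treatment, so the comparison holds no cow in natural or short light. They differ by label in the day of biopsy, and with it go the time spent in long days and the time since drying off. These cannot be told apart here. The 7 SD arrays (3 at day -24 and 4 at day -9) served for the shared estimate of the spread and for the test of whether the day difference itself differed between photoperiods. Nothing in the labels ties a day -24 biopsy to the cow of a day -9 biopsy, so the p-values measure only the spread between these samples.

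In the last weeks before calving the alveolar epithelium of the gland completes its growth and then differentiates towards secretion, a step in which progesterone falls and prolactin acts through its receptor and STAT5. Synthesis of milk proteins, lactose and fat is set up in this phase, and colostrum, rich in immunoglobulins and defence proteins, collects in the gland. Light is a known signal in dairy cows: photoperiod alters circulating prolactin, and exposure in the dry period is known for its effect on the following lactation.

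Both LD groups carried the marks of secretory mammary tissue. The values are the authors' RMA log2 signals, in which 1 unit is a doubling. CSN2, the beta-casein gene, had a signal of 12.79 ± 0.15 at day -9 and 12.88 ± 0.22 at day -24 (SD, n = 4 and n = 3), and PAEP, the beta-lactoglobulin gene, one of 13.65 ± 0.06 and 13.73 ± 0.13. The luminal keratin gene KRT19 was at 12.64 ± 0.21 and 12.33 ± 0.05. The 5 measured keratinocyte markers of skin averaged 4.13 to 4.82 in the 7 LD arrays. That is near or below the lower quartile of all probe set means (4.55). The adipocyte hormone gene ADIPOQ lay between 3.46 and 3.86, but the 17 measured adipocyte markers together averaged 5.55 to 6.17, above that quartile.

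The 7 LD arrays had median signals of 6.43 to 6.61 and correlated with the other arrays of their group at r = 0.965 to 0.990 across probe sets. LD day -24 replicate 1 stood apart, at 62.6 on the first principal component against -15.6 and -12.2 for the other arrays of its group, and LD day -9 replicate 4 lay at the other end, at -44.5. In LD day -9 replicate 4, and in an SD day -24 array, 280 probe sets were low against every other array. Of these, 276 were below 0 in the LD comparison, a direction largely set by choosing them for a low day -9 value. Control transcripts gave a mean 3-prime minus 5-prime signal, a sign of RNA integrity, of 0.89 ± 0.13 at day -9 and 0.92 ± 0.12 at day -24 (SD, n = 4 and n = 3, two-sided exact permutation p = 0.743, where the smallest possible p is 0.0571). For GAPDH alone it was 1.39 ± 0.11 against 1.57 ± 0.09 (exact permutation p = 0.171, and 0.743 adjusted over 8 such tests). The arrays in which the 280 probe sets were low had high means over the control transcripts. LD day -9 replicate 4 was at 1.07, the highest of the 7 LD arrays, and the SD day -24 array, replicate 3, at 1.18. SD day -24 replicate 2, in which they were not low as a set, was at 1.09. Whether the low signals go with RNA integrity was not tested.

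Of the 24016 probe sets tested, limma called 0 at an adjusted p of 0.05, or 0.0%, and the smallest adjusted p was 0.478. At an unadjusted p under 0.05 there were 1795 (7.47%), of which 867 were higher at day -9 (3.61%) and 928 lower (3.86%), while 50.5% of all probe sets lay above 0. After centring each array on its median these became 519 higher and 1408 lower, so the split between directions depends on the scaling. The values of the 4 day -9 arrays did not overlap those of the 3 day -24 arrays for 2156 probe sets (8.98%), on the higher side for 1038 (4.32%) and on the lower side for 1118 (4.66%). The median size of a difference was 0.17, the median standard error 0.18, and 93 probe sets differed by more than 1, of which 63 were higher and 30 lower. When each of the 9155 named genes was represented by its probe set of highest mean, 59.9% lay above 0 with a median of 0.06, which is the background for the counts in gene groups below. Among these genes 4.89% had an unadjusted p under 0.05 and were higher, and 3.09% were lower. Since no gene passed the adjusted threshold, the named genes are described by their values. The adjusted p is 0.651 wherever none is given beside a gene of unadjusted p under 0.05, and it lay between 0.478 and 0.969 over all 200 named probe sets.

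The genes of smallest p at higher signal in day -9 were CCN1 and KCNE4. CCN1, which encodes a secreted matrix-associated protein and responds early to growth factors and stretch, was at 8.02, 7.87 and 8.39 in the day -24 arrays and at 9.32, 9.12, 8.88 and 8.98 in the day -9 arrays. The groups did not overlap, and the difference was 0.98 (standard error 0.16, 95% interval 0.63 to 1.34, adjusted p = 0.478). KCNE4, an accessory subunit of voltage-gated potassium channels, was at 6.34, 6.93 and 7.24 at day -24 and at 8.39, 7.86, 8.02 and 8.33 at day -9. Each day -9 array lay above each day -24 array, with a difference of 1.31 (standard error 0.22, 95% interval 0.83 to 1.79, adjusted p = 0.478). Leaving out 1 LD array at a time kept CCN1 between 0.87 and 1.13 and KCNE4 between 1.06 and 1.52. In SD the same difference was 0.70 for CCN1 and -0.04 for KCNE4. The test of LD change minus SD change gave an unadjusted p of 0.249 for CCN1 and 0.000831 for KCNE4, and no adjusted p under 0.9 for any probe set.

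**Figure D1:**
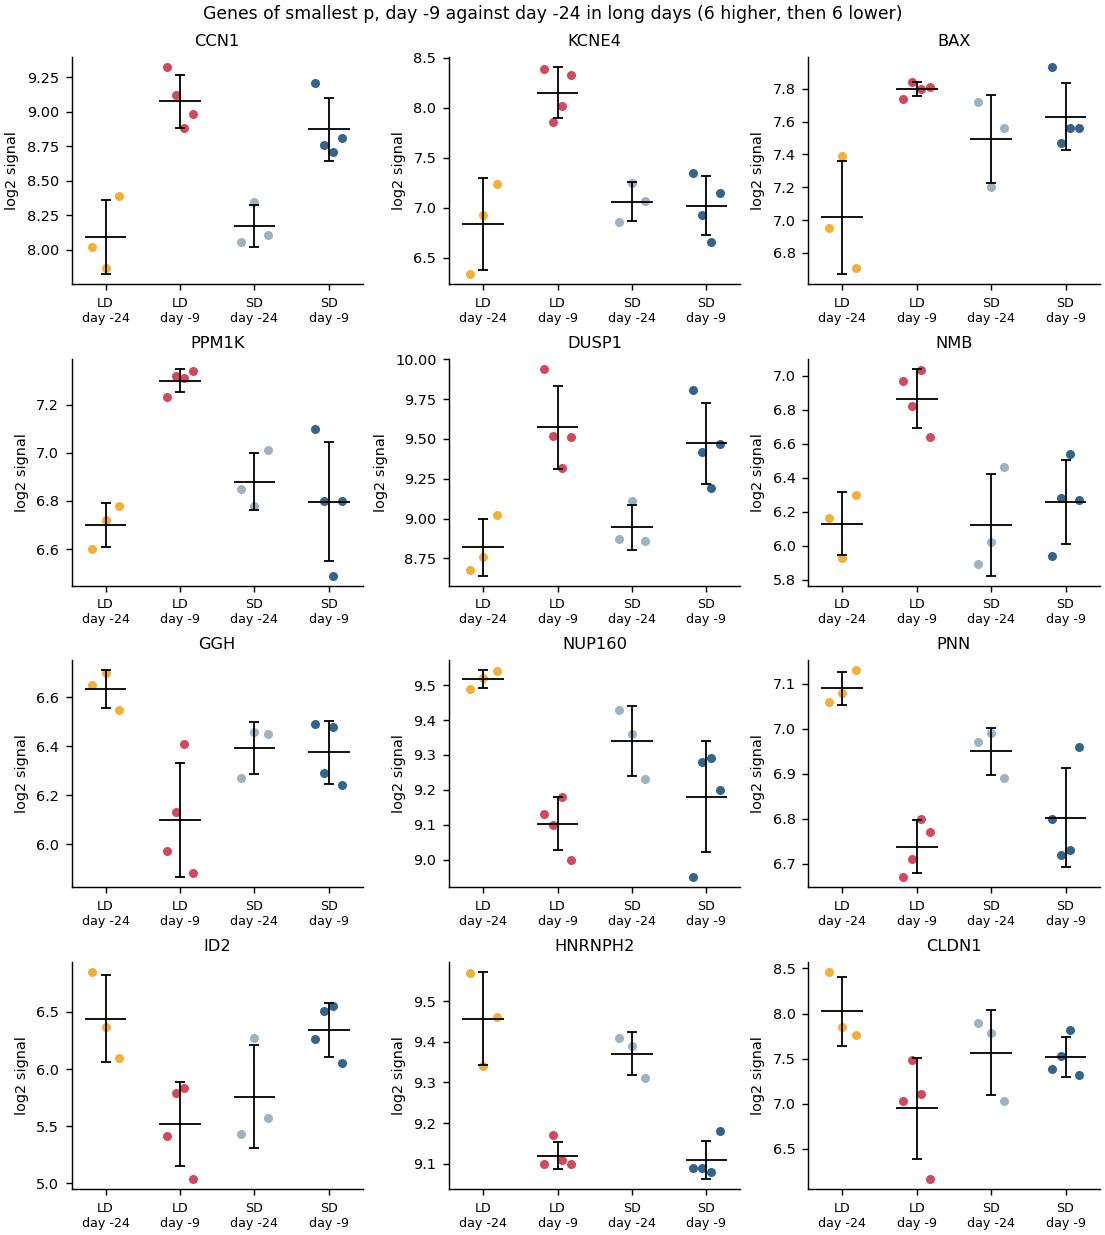
Log2 signal (vertical axes) of 12 genes in each array, by photoperiod and day; dots are arrays and bars show the mean ± SD of a group (n = 3 at day -24, n = 4 at day -9). In the LD groups each of the 12 genes shows no overlap between days, while KCNE4 has SD groups at like levels, with a difference of -0.04.

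DUSP1, a phosphatase that switches off MAP kinases, was at 8.68, 8.76 and 9.02 at day -24 and at 9.94, 9.52, 9.32 and 9.51 at day -9, a difference of 0.75 without overlap. BAX, the mitochondrial effector of cell death, was at 6.95, 7.39 and 6.71 against 7.74, 7.84, 7.80 and 7.81, so the day -9 arrays lie close together and above each day -24 array. Its difference was 0.78, against 0.14 in SD. NMB, the neuropeptide neuromedin B, differed by 0.74 and MARVELD1, a membrane protein, by 0.82, both without overlap. TNFSF13, a cytokine that supports B and plasma cells, differed by 0.74, from 4.47 to 4.70 at day -24 and from 4.78 to 5.60 at day -9. A second probe set of TNFSF13 differed by 0.18 with overlap.

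PPM1K, the mitochondrial phosphatase that activates the breakdown of branched-chain amino acids, was at 6.60, 6.72 and 6.78 at day -24 and at 7.23, 7.32, 7.31 and 7.34 at day -9, a difference of 0.60. Of the 3 other probe sets of PPM1K, 2 went the other way (-0.16 and -0.34) and 1 was at 0.13, so the gene as a whole has no settled direction. NKIRAS1, a brake on NF-kappa-B, differed by 0.50, SLC7A6OS by 0.44 and POLR3C, a subunit of RNA polymerase III, by 0.36, all without overlap. Brighter probe sets of SLC7A6OS and POLR3C differed by 0.17 and 0.26, both with overlap. ABO, a blood group glycosyltransferase, was at 4.81, 5.77 and 4.72 against 6.14, 5.93, 6.19 and 5.76. The lowest day -9 array lay just under the highest day -24 array, and the difference was 0.91. Brighter probe sets of ABO differed by 0.54 and 0.38, also with overlap.

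At lower signal in day -9, the smallest p-values belonged to GGH, NUP160, PNN, ID2, HNRNPH2 and CLDN1. GGH, a lysosomal enzyme of folate turnover, was at 6.65, 6.70 and 6.55 at day -24 and at 5.97, 6.13, 6.41 and 5.88 at day -9, a difference of -0.53. CLDN1, a sealing protein of tight junctions, was at 8.46, 7.85 and 7.76 against 7.03, 7.49, 7.11 and 6.17, a difference of -1.07 (standard error 0.29, 95% interval -1.71 to -0.44). Every day -9 array of CLDN1 lay below every day -24 array, and the value was -0.81 without LD day -9 replicate 4, the lowest of them. A second, dimmer probe set of CLDN1 differed by -0.58 with overlapping groups, and in SD the brighter one differed by -0.05.

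ID2, an inhibitor of basic helix-loop-helix factors that alveolar development needs, was at 6.85, 6.37 and 6.10 at day -24 and at 5.41, 5.79, 5.83 and 5.04 at day -9. The difference was -0.92 in LD and 0.58 in SD, and the test of LD change minus SD change gave an unadjusted p of 0.000954. Its other, brighter probe set was at 9.05, 9.51 and 9.63 against 9.02, 9.05, 9.12 and 7.95, so the groups met and the difference of -0.61 came to -0.33 without LD day -9 replicate 4. NUP160, a nuclear pore protein, differed by -0.42, PNN, which links splicing and cell adhesion, by -0.35, and HNRNPH2, an RNA-binding protein, by -0.34. In each of these genes every day -24 array lay above every day -9 array.

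The remaining genes of this set were NAA25 (-0.62), a subunit of an N-terminal acetyltransferase, UXS1 (-0.51), which makes UDP-xylose for proteoglycans, COL26A1 (-0.47), a collagen, GRIK5 (-0.46), a glutamate receptor subunit, and PCGF6 (-0.44), a polycomb protein. MYNN, a zinc finger protein, was at 6.80, 6.79 and 6.80 at day -24 and at 6.30, 6.20, 6.44 and 6.17 at day -9. It differed by -0.52 in LD and by 0.46 in SD.

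Ranked by size among named genes without overlap, the highest was LOC100847724, which has no gene name. It was at 5.32, 7.33 and 7.37 at day -24 and at 10.26, 9.68, 7.76 and 9.36 at day -9, a difference of 2.59 or 6.03-fold, and 1.92 without LD day -24 replicate 1. CYP11A1, the side-chain cleavage enzyme that starts steroid synthesis, was at 3.81, 4.04 and 5.21 against 6.96, 5.81, 5.63 and 7.52, a difference of 2.13. All day -9 arrays stood above the day -24 arrays, although 2 of the 3 earlier values lie below the lower quartile of all probe sets, near background. CD5L, a protein secreted by macrophages, was at 3.56, 3.56 and 3.58 against 4.11, 5.31, 7.05 and 4.63, a difference of 1.71 with a wide spread at day -9, and 1.12 without LD day -9 replicate 3. Its day -24 values also lie near background.

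VNN1, a pantetheinase, differed by 1.59, with 5.40 to 6.19 at day -24 and 6.20 to 8.79 at day -9, so the groups nearly touch. GPX3, the secreted glutathione peroxidase, was at 3.18, 4.49 and 4.39 against 5.08, 4.96, 6.46 and 5.53, a difference of 1.49, against 0.03 in SD. All 3 earlier values of GPX3 lie below the lower quartile, near background. STATH, a calcium-binding protein known from saliva, differed by 1.46 in LD, by 0.70 without LD day -24 replicate 3, and by 2.21 in SD. DEFB4A and CFB, also in this set, stand with the defence genes below.

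Beside CLDN1 and ID2, the 8 lowest by size held SLC39A6, CATHL3, CORO2A, SRI, ALKBH8 and CALCRL. SLC39A6, a zinc importer, was at 8.16, 7.77 and 7.85 against 6.95, 7.19, 7.64 and 5.89, a difference of -1.01, and -0.67 without LD day -9 replicate 4, while a brighter probe set of the gene differed by -0.16 with overlap. That array gave the lowest value of the day -9 group for CORO2A, SRI, ALKBH8 and CALCRL as well, and without it these genes differed by -0.61, -0.55, -0.58 and -0.51 in place of -0.79, -0.75, -0.71 and -0.70. Neither SRI nor CORO2A has a settled direction: the brightest probe set of SRI differed by 0.17 and a dimmer one of CORO2A by 0.22, both with overlap. Another probe set of each lay below 0, at -0.27 for SRI and -0.35 for CORO2A, also with overlap. SLC39A6 belongs to the 280 probe sets that were low in LD day -9 replicate 4. Whether that array's low signal adds to the other 4 was not tested. CALCRL encodes the receptor of calcitonin gene-related peptide and adrenomedullin, and a second, brighter probe set of it differed by -0.90 with overlapping groups, and by -0.44 without LD day -9 replicate 4.

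Innate defence and acute phase genes had the highest median of the 39 lists: 33 of 42 measured members lay above 0 and 9 below, with a median difference of 0.66, against 59.9% above 0 and a median of 0.06 over all named genes. None passed the adjusted threshold. At an unadjusted p under 0.05, 11 were higher and 0 lower, against 4.89% and 3.09% of all named genes. Groups did not overlap for 8 on the higher side, where 6.07% of all named genes stood, and for 1 on the lower side, where 4.28% stood. The number with an unadjusted p under 0.05 rests on a few arrays: leaving out replicate 1 of day -9 gave 3, leaving out replicate 1 of day -24 gave 4 and leaving out replicate 2 of day -24 gave 5, while the median stayed between 0.47 and 0.80 as each LD array was left out. The mean of the list, centred on all arrays, was -0.26, -0.35 and 0.08 at day -24 and 1.03, 0.19, -0.10 and 0.64 at day -9, so LD day -9 replicate 3 lay within the day -24 range. In SD the median was 0.22, but -0.06 with 25 of 42 below 0 without SD day -9 replicate 1, and the difference between photoperiods had an unadjusted p under 0.05 for 3 of the 42 members. Genes named below beyond the rule given with the processing (among them HP, SAA3, LBP, EBD, TAP, PTX3, TLR4, CXCL5, GRO1, the cathelicidins other than CATHL3, IL1B, TNF, CCL2, ELANE, CSF1R, C1QA, C1QB and KRT5) were chosen after their values were seen.

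**Figure D2:**
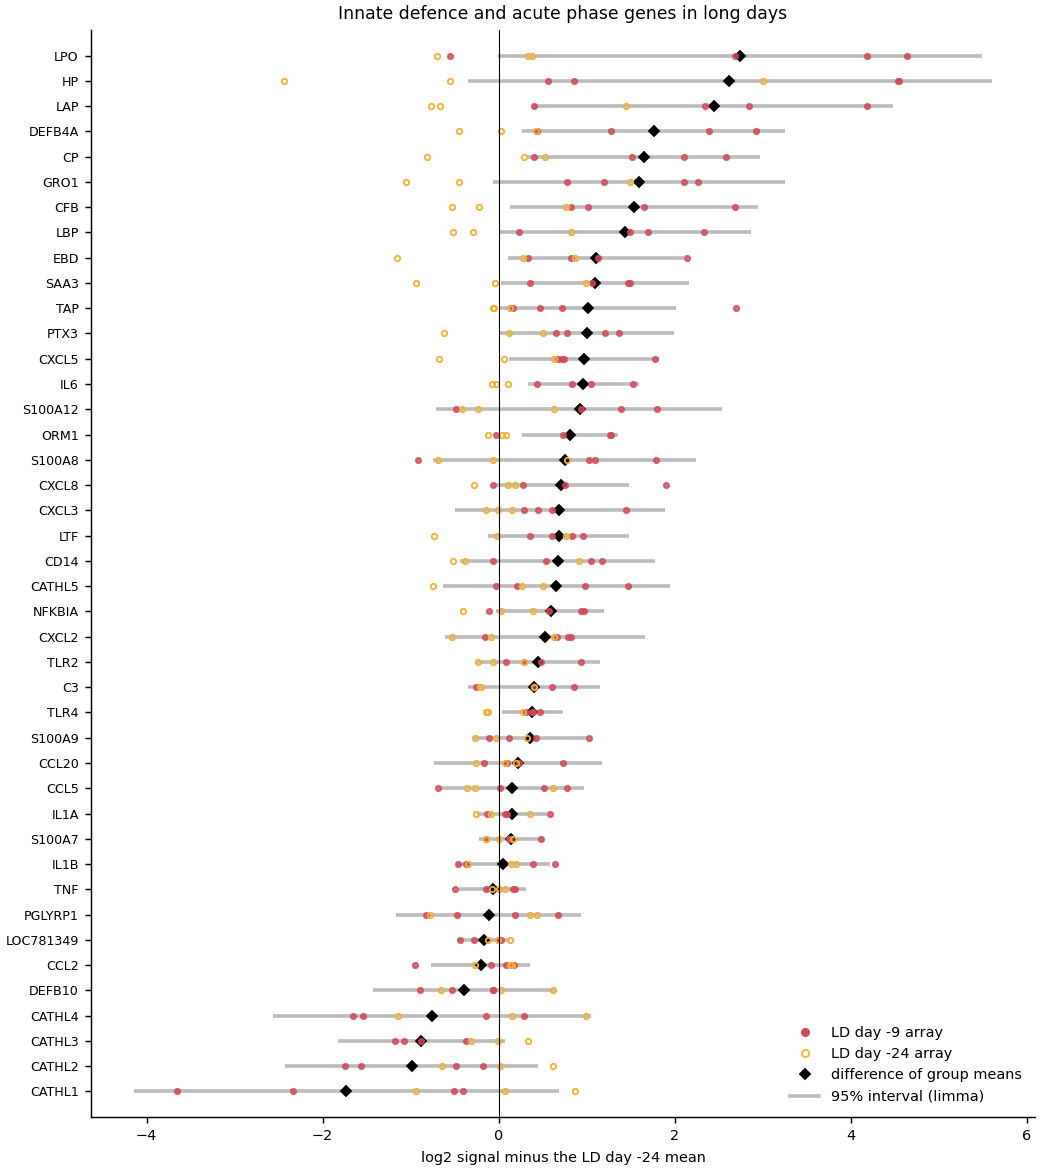
Log2 differences of the 42 measured innate defence and acute phase genes: dots are the LD arrays minus the day -24 mean, diamonds the day -9 minus day -24 difference and lines its 95% interval. Differences run from -1.73 for CATHL1 to 2.74 for LPO, and 33 of the 42 diamonds lie above 0.

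Among antimicrobial peptides and proteins, LAP, the lingual antimicrobial peptide, was at 4.53, 4.63 and 6.75 at day -24 and at 9.48, 7.64, 5.70 and 8.14 at day -9. The difference was 2.44 (95% interval 0.39 to 4.48), with LD day -9 replicate 3 inside the earlier range. DEFB4A, a beta-defensin, was at 7.65, 7.18 and 8.05 against 10.55, 10.02, 8.07 and 8.90, a difference of 1.76 in which the groups nearly touch. LPO, lactoperoxidase, was at 4.40, 3.32 and 4.35 against 8.66, 3.47, 8.20 and 6.70. Of its day -9 arrays 3 stood far above the day -24 arrays and 1 among them, for a difference of 2.74 (95% interval -0.01 to 5.49).

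The beta-defensins EBD and TAP differed by 1.11 and 1.01, the tracheal peptide TAP with values of 3.79 to 3.99 at day -24 and 4.02 to 6.55 at day -9. LTF, lactoferrin, which withholds iron from bacteria, was at 12.96 ± 0.27 against 12.27 ± 0.75 (SD, n = 4 and n = 3), a difference of 0.68 and one of 0.31 without LD day -24 replicate 1. The cathelicidins CATHL1, CATHL2, CATHL3 and CATHL4, peptides stored in neutrophil granules, lay on the other side, at -1.73, -0.99, -0.88 and -0.76, while CATHL5 was at 0.65. Beta-defensins and cathelicidins are families of near-identical genes, whose probe sets can pick up each other's transcripts, so the values of single members are uncertain.

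Genes of acute phase proteins, which circulate in infection and are also made in the udder, lay on the higher side. HP, haptoglobin, was at 4.10, 5.99 and 9.54 at day -24 and at 11.07, 7.40, 7.10 and 11.09 at day -9. Its spread was wide in both groups, with an SD of 2.76 at day -24 and 2.21 at day -9, and the difference of 2.62 had a 95% interval of -0.35 to 5.60. CP, ceruloplasmin, was at 7.67, 6.56 and 7.91 against 9.96, 8.89, 7.78 and 9.48, a difference of 1.65, with 3 of the 4 later arrays above the earlier ones. SAA3, the mammary serum amyloid, differed by 1.09, LBP, which binds lipopolysaccharide, by 1.43, and ORM1, alpha-1-acid glycoprotein, by 0.81, each with overlapping groups. PTX3, a long pentraxin, was at 4.57, 5.31 and 5.69 against 6.56, 5.96, 6.40 and 5.84, without overlap.

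Of complement, receptors and cytokines, CFB, factor B of the alternative pathway, was at 7.39, 7.70 and 8.68 against 10.60, 8.93, 8.74 and 9.57, a difference of 1.54 in which the groups did not overlap. TLR4, the lipopolysaccharide receptor, was at 8.43, 8.84 and 8.45 against 8.95, 9.04, 8.96 and 8.88, a difference of 0.38 without overlap. The neutrophil chemokine CXCL5 was at 5.15, 5.89 and 6.46 at day -24 and averaged 6.80 ± 0.53 at day -9 (SD, n = 4) with 7.60 in replicate 1, without overlap. The difference was 0.97 in LD and -0.60 in SD. GRO1, another chemokine of that family, differed by 1.59 and overlapped. IL6, an inducer of the acute phase, was at 3.21, 3.02 and 3.07 against 4.63, 4.15, 3.93 and 3.53, a difference of 0.96 at levels mostly below the lower quartile. IL1B, TNF and CCL2 differed by 0.05, -0.07 and -0.20.

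Markers of the cells that could carry these transcripts were set beside them. Of 14 neutrophil markers, 5 of which also stand in the defence list, 10 lay above 0 with a median of 0.32, and 1, NCF4 of the NADPH oxidase, had an unadjusted p under 0.05. Their mean score was -0.14 to 0.14 at day -24 and 0.60, 0.14, -0.32 and 0.42 at day -9, high in replicates 1 and 4 and low in replicate 3, the same order as the defence list. The granule enzyme genes MPO and ELANE differed by -0.28 and -0.01. NCF4 itself was at 7.50, 7.74 and 7.67 against 8.20, 8.42, 7.94 and 8.18, without overlap.

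Of 17 macrophage and dendritic markers, 9 lay above 0, with a median of 0.01. GPNMB, a glycoprotein of lipid-laden macrophages, was at 7.01, 6.63 and 7.90 against 8.47, 8.22, 8.22 and 7.91, a difference of 1.02 in which the groups nearly touch. CD68 differed by 0.75 and CD14 by 0.67 with overlap, while CSF1R, C1QA and C1QB differed by -0.06, 0.01 and -0.01. In bulk tissue more cells of a type and more RNA per cell cannot be told apart, and the part of these cells in the defence genes was not tested. With the luminal marker score as a covariate the median of the defence list was 0.34, and 4 members were higher and 1 lower at an unadjusted p under 0.05.

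Milk synthesis genes showed no shared direction in their main products. Milk proteins lay above 0 for 6 of 12 members, with a median of 0.06, and 0 had an unadjusted p under 0.05. The caseins CSN1S1, CSN1S2, CSN2 and CSN3 differed by -0.10, 0.13, -0.09 and -0.04 (95% intervals within -0.45 to 0.69) and PAEP by -0.08. CSN2 and PAEP lay near the highest value in the data, 14.01. Whether the arrays still resolve differences at such signals was not tested, so these small differences do not show an unchanged level. Leaving out LD day -24 replicate 1 turned the sign of CSN1S1, CSN2 and CSN3 to 0.11, 0.03 and 0.07. LALBA, alpha-lactalbumin, which switches galactosyltransferase to lactose synthesis, was at 13.17, 12.30 and 11.71 against 13.13, 12.71, 13.01 and 12.92. It varied more at day -24 (SD 0.74) than at day -9 (SD 0.18), and the difference of 0.55 did not separate the groups (adjusted p = 0.662). GLYCAM1 differed by 0.63 (adjusted p = 0.655). Without LD day -24 replicate 3, LALBA differed by 0.21 and GLYCAM1 by 0.24.

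Of 12 genes of lactose synthesis and glucose supply, 11 lay above 0, against 59.9% of all named genes, with a median of 0.29. At an unadjusted p under 0.05, 1 member, PGM1, was higher, against 4.89% of all named genes. PGM1, which interconverts glucose phosphates, was at 8.24, 8.66 and 8.59 against 8.76, 8.88, 8.86 and 8.94, a difference of 0.37 without overlap, and 0.24 without LD day -24 replicate 1. The glucose transporter genes SLC2A1 and SLC2A4 differed by 0.32 and 0.39, the former with overlapping groups. In SD the list's median was 0.02.

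Of 25 genes for fatty acid uptake and synthesis, 18 lay above 0, against 59.9% of all named genes, with a median of 0.08. At an unadjusted p under 0.05, 1 was higher and 1 lower, against 4.89% and 3.09% of all named genes. ACLY, which makes cytosolic acetyl-CoA from citrate, was at 9.95, 9.83 and 10.25 against 9.49, 9.56, 9.69 and 9.67, a difference of -0.41 without overlap, and -0.28 in SD. ME1, malic enzyme, was at 4.39, 5.37 and 5.22 against 6.72, 5.67, 6.34 and 4.99, a difference of 0.94 with overlap. FASN and ACACA, the enzymes that build milk fatty acids, differed by 0.08 and 0.07, SCD by -0.06 and LPL, which frees fatty acids from blood lipids, by 0.66 (adjusted p = 0.695), which was 0.09 with the adipocyte marker score as a covariate. The signs of FASN, ACACA and SCD changed under other settings.

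Fat globule genes had a median of 0.14, with 13 of 17 above 0 and 0 at an unadjusted p under 0.05, and the median was -0.02 without LD day -24 replicate 3 and -0.04 with the adipocyte covariate. CIDEA and CIDEC stand in both this list and the adipocyte markers, so the covariate is partly made from genes it adjusts. Adipocyte markers lay above 0 for 13 of 17, with a median of 0.18, and their part in the fat genes was not tested. MUC1, a mucin of the globule membrane, was at 9.73, 9.79 and 7.90 against 10.22, 10.22, 10.49 and 10.25, and its difference of 1.15 was 0.54 without the low array, LD day -24 replicate 3, and 0.40 with the adipocyte covariate. BTN1A1, butyrophilin, and XDH, its partner in globule secretion, differed by 0.15 and -0.07. Cholesterol synthesis genes had a median of 0.09, with 8 of 15 above 0, and the sign of the median changed to -0.08 without LD day -9 replicate 4.

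Hormone and growth factor genes varied one by one. PRLR, the prolactin receptor, was at 10.11, 10.20 and 9.71 against 9.76, 9.80, 10.23 and 8.49, a difference of -0.44 (adjusted p = 0.727) that was -0.08 without LD day -9 replicate 4. STAT5B differed by 0.67 and SOCS2, a feedback inhibitor, by -0.21, and of the 12 genes of prolactin and growth hormone signalling 0 had an unadjusted p under 0.05. GHR differed by 0.08, IGF1 by -0.33, ESR1 by -0.10 and PGR by -0.36, each with overlap and with a sign that changed under some setting. IGFBP2, an IGF binding protein, was at 5.93, 6.60 and 6.95 against 7.14, 7.54, 7.07 and 7.56, a difference of 0.83 without overlap, and of 0.55 without LD day -24 replicate 1. It was the only one of 14 IGF axis genes with an unadjusted p under 0.05. IGFBP5, known from involution, differed by 0.44.

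Of 14 steroid response genes 2 were higher at an unadjusted p under 0.05, against 4.89% of all named genes. HSD11B1, which regenerates cortisol, was at 5.04, 5.25 and 4.41 against 5.49, 5.37, 5.66 and 5.38, and HSD17B4 was at 9.95, 10.04 and 9.99 against 10.30, 10.38, 10.31 and 10.09. Both showed no overlap, with differences of 0.57, or 0.33 without LD day -24 replicate 3, and 0.28. Of 9 clock genes, NFIL3 differed by 0.70 (0.46 without LD day -24 replicate 1) and CRY1, a repressor of the core loop, by -0.47, both without overlap, and PER2 by -0.22. The hour of biopsy is not given in the labels used here.

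Of 17 calcium and serotonin genes, 2 were higher and 1 lower at an unadjusted p under 0.05, against 4.89% and 3.09% of all named genes. ATP2B1, a calcium pump of the plasma membrane, was at 10.04, 9.77 and 10.04 against 9.68, 9.64, 9.54 and 9.51, a difference of -0.36, while STIM1, the sensor that opens store-operated calcium entry, differed by 0.37, and by 0.20 without LD day -24 replicate 1. MAOB, which breaks down amines, was at 6.37, 5.53 and 6.76 against 6.93, 6.89, 6.83 and 7.14, a difference of 0.73 without overlap, and of 0.39 without LD day -24 replicate 2.

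Genes of fatty acid oxidation and oxidative phosphorylation lay mostly on the higher side by small amounts. Of 23 genes of fatty acid oxidation, 21 lay above 0 with a median of 0.22. At an unadjusted p under 0.05, 6 were higher and 0 lower, against 4.89% and 3.09% of all named genes. ACAA1, a peroxisomal thiolase, was at 8.13, 8.60 and 8.31 at day -24 and between 8.75 and 9.19 at day -9, a difference of 0.59 (standard error 0.19) without overlap. ECI1 and ACAD10 differed by 0.53 and 0.77 (ACAD10 by 0.47 without LD day -24 replicate 3), and PPARA, the receptor that switches on this pathway, by 0.37, each with overlap. The score of the list was -0.32, -0.05 and -0.01 at day -24 and 0.13, 0.11, 0.16 and 0.16 at day -9, so the groups did not overlap and the lowest value belonged to LD day -24 replicate 1. Without that array 17 of 23 lay above 0, the median was 0.11 and 2 had an unadjusted p under 0.05, and without LD day -9 replicate 4 the last count was 3. In SD the median was 0.00.

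Of 70 subunits of oxidative phosphorylation, 65 lay above 0, against 59.9% of all named genes, with a median of 0.15. At an unadjusted p under 0.05, 2 were higher and 0 lower, against 4.89% and 3.09% of all named genes. UQCRC1, a core protein of complex III, had the largest difference of the list, with values of 7.12, 8.07 and 7.84 against 7.94, 8.25, 8.56 and 9.20, a difference of 0.81 with overlap, and 0.53 without LD day -24 replicate 1. NDUFA2 and ATP5F1D, of complex I and of the ATP synthase, differed by 0.34 and 0.35. The list score was -0.20, 0.03 and -0.04 against -0.05, 0.08, 0.05 and 0.25, so the groups overlapped. Without LD day -24 replicate 1, 57 of 70 lay above 0, and after median centring 60. In SD 11 of 70 lay above 0, where 42.3% of all named genes did, with a median of -0.07. Without SD day -9 replicate 1 that median was -0.02, with 44 of 70 below 0.

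**Figure D3:**
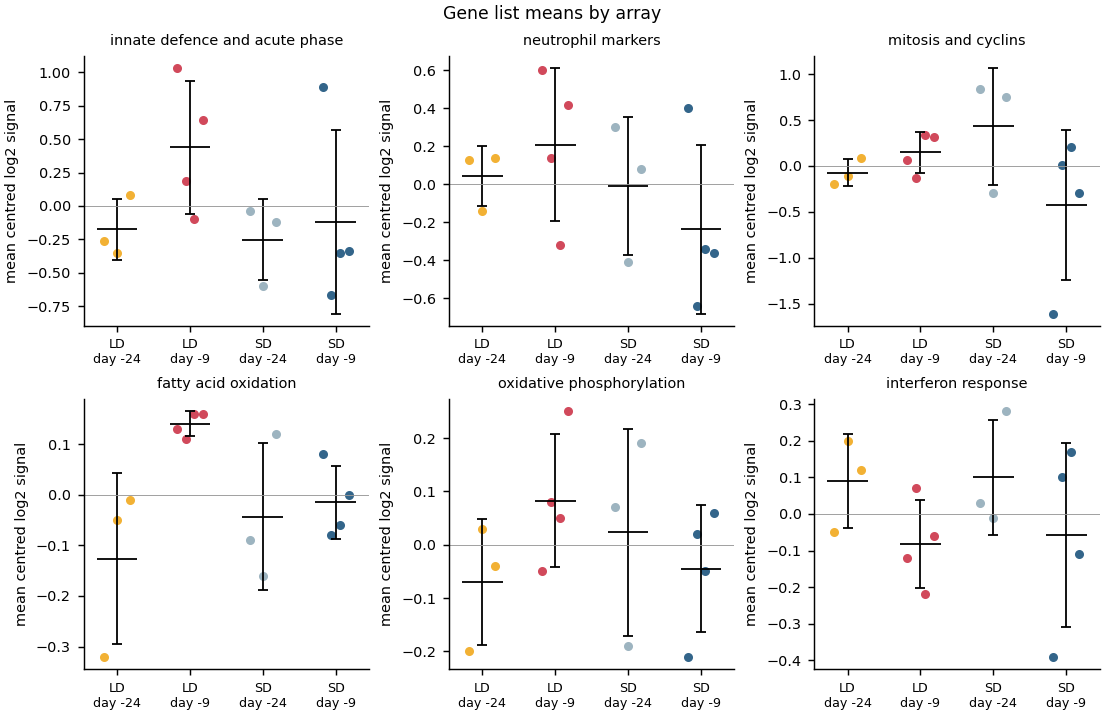
Mean of 6 gene lists in each array, as the log2 signal centred per probe set on all 14 arrays; dots are arrays, bars the mean ± SD of a group (n = 3 at day -24, n = 4 at day -9). Fatty acid oxidation has LD groups that do not overlap (-0.32 to -0.01 against 0.11 to 0.16), and innate defence has LD day -9 replicate 3 at -0.10, among the day -24 arrays.

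Cell division genes were described as separate lists of mitosis and replication. Of 31 genes of mitosis and cyclins, 28 lay above 0 in LD, against 59.9% of all named genes, with a median of 0.27. At an unadjusted p under 0.05, however, 1 was higher and 1 lower, against 4.89% and 3.09% of all named genes. AURKA, the kinase of spindle poles, whose second probe set differed by 0.18 with overlap, was at 6.13, 6.63 and 6.70 against 7.04, 6.92, 7.12 and 7.49, a difference of 0.66 without overlap, and CDC25C differed by 0.31. CCNE1, the cyclin of entry into DNA synthesis, was at 7.02, 6.33 and 6.59 against 5.95, 6.29, 6.38 and 6.33, a difference of -0.41, and -0.22 without LD day -24 replicate 1. The list score was -0.20, -0.11 and 0.09 at day -24 and 0.07, -0.13, 0.34 and 0.32 at day -9. In SD 30 of 31 lay below 0, where 57.7% of all named genes did, with a median of -0.96, which was -0.47 without SD day -9 replicate 1, the array with a score of -1.61. The test of LD change minus SD change had an unadjusted p under 0.05 for 8 of the 31, against 3.58% of all named genes.

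In LD, replication genes lay below 0 for 18 of 31, against 40.1% of all named genes, with a median of -0.07. That median was 0.03 without LD day -24 replicate 3 and 0.06 with the adipocyte covariate, so its sign is not settled. In SD the median was -0.40, and -0.15 without SD day -9 replicate 1. PCNA, the sliding clamp of DNA polymerase, was at 9.82, 9.84 and 9.98 against 9.48, 9.32, 9.68 and 9.12, a difference of -0.48 without overlap and one of -0.47 in SD. PRIM1, a primase subunit, differed by -0.58 in LD and 0.14 in SD. RB1, which holds cells before DNA synthesis, differed by -0.33 without overlap, and the cell cycle inhibitor CDKN1A by 0.54 with overlap.

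Interferon response genes lay below 0 for 18 of 26, where 40.1% of all named genes did, with a median of -0.19. The number lower at an unadjusted p under 0.05 was 4, with 0 higher, against 3.09% and 4.89% of all named genes. HERC6, a ubiquitin ligase of that response, was at 4.18, 4.26 and 4.26 against 3.86, 3.83, 3.76 and 3.71, without overlap and with a small spread in both groups. Its difference of -0.45 (standard error 0.10) lies at signals below the lower quartile. MX1 differed by -0.58 and RSAD2 by -0.57, both antiviral effectors, and USP18, which limits interferon signalling, by -0.35, all with overlap. The median of the list was -0.07 without LD day -24 replicate 2, and the 4 lower members became 2 without that array and 1 when either LD day -24 replicate 3 or LD day -9 replicate 3 was left out. In SD the median was -0.14, and -0.03 with 17 of 26 below 0 without SD day -9 replicate 1.

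Genes for immunoglobulin transport and class II presentation lay below 0 for 9 of 13, with a median of -0.15. PIGR, which carries IgA into milk, was at 11.38, 11.52 and 11.29 against 11.73, 11.48, 11.49 and 11.23, a difference of 0.09. FCGRT, the heavy chain of the neonatal Fc receptor for IgG, differed by 0.24, and by 0.03 without LD day -24 replicate 1. JCHAIN, the joining chain of IgA and IgM, differed by -0.38.

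Myoepithelial markers, of the contractile cells that eject milk, lay above 0 for 11 of 14 with a median of 0.27. At an unadjusted p under 0.05, 3 were higher, against 4.89% of all named genes. TPM2, a tropomyosin, was at 10.96, 11.21 and 11.30 against 11.98, 11.47, 11.84 and 11.48, a difference of 0.54 without overlap. ACTA2, smooth muscle actin, and CNN1, calponin, differed by 0.51 and 0.97 with overlap, and the basal keratin genes KRT14 and KRT5 by 0.58 and -0.10. The score of the list was -0.46 in LD day -24 replicate 1, and without that array 0 of the 14 had an unadjusted p under 0.05. Luminal markers had a median of 0.10, with 11 of 16 above 0, and -0.06 without the same array.

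Endothelial markers lay above 0 for 14 of 17 with a median of 0.18. TIE1, a receptor of vessel walls, was at 6.70, 7.36 and 6.98 against 7.62, 7.41, 7.78 and 7.76, a difference of 0.63 without overlap, and PLVAP differed by 0.59. These were the 2 members with an unadjusted p under 0.05, where 4.89% of all named genes were higher. The number was 0 without LD day -24 replicate 1. Of the adipocyte markers 0 had an unadjusted p under 0.05. With the adipocyte score as a covariate, 8 of the 17 endothelial markers lay above 0.

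Of 37 matrix genes 18 lay above 0, with a median of 0.00. At an unadjusted p under 0.05, 3 were higher and 3 lower, against 4.89% and 3.09% of all named genes. TIMP1, an inhibitor of matrix proteases, differed by 0.80 and MMP19 by 0.64, while COL15A1, a collagen of basement membranes, was at 10.56, 10.34 and 10.49 against 10.04, 10.18, 10.32 and 10.00, a difference of -0.33 without overlap. A second probe set of COL15A1 at a like level differed by -0.05 with overlap. Involution and cell death genes lay above 0 for 23 of 31 with a median of 0.16, and the members with an unadjusted p under 0.05 were BAX, TIMP1 and the survival gene BCL2L1 (0.32) on the higher side and MMP14 (-0.33) on the lower side. MMP14, a membrane-bound matrix protease, differed by 0.37 in SD.

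Among epithelial junction genes, TJP3, a scaffold of the tight junction, was at 8.64, 8.83 and 8.53 against 9.13, 9.04, 8.93 and 9.29, a difference of 0.43, opposite in sign to CLDN1, and CLDN3 and CLDN4 differed by 0.33 and 0.34 with overlap. CTNNB1, beta-catenin, was at 11.11, 10.99 and 11.21 against 10.63, 10.74, 10.94 and 10.50, a difference of -0.40 without overlap, while in SD it differed by 0.01. CEBPD, a transcription factor of involution and of the acute phase, differed by 0.76 without overlap, at an unadjusted p of 0.0665 and an adjusted p of 0.651 by limma.

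The differences in LD were set beside those in SD. The difference of changes had an adjusted p under 0.05 for 0 probe sets (smallest 0.9) and an unadjusted p under 0.05 for 997 (4.15%). In SD itself, 0 probe sets had an adjusted p under 0.05 and 1096 (4.56%) an unadjusted one, and the day groups did not overlap for 1416 (5.9%), on the higher side for 710 (2.96%) and on the lower side for 706 (2.94%). Of the 2156 probe sets whose LD groups did not overlap, 5.66% also had SD groups apart in the same direction, which is 8.62% of the 1416 such probe sets of SD, and 0.928% of them had SD groups apart in the opposite direction. Among probe sets of named genes these were 18 higher in both, 46 lower in both and 11 opposite. Across all probe sets the LD and SD differences had a Pearson correlation of 0.084, given as a description, since probe sets are not independent.

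**Figure D4:**
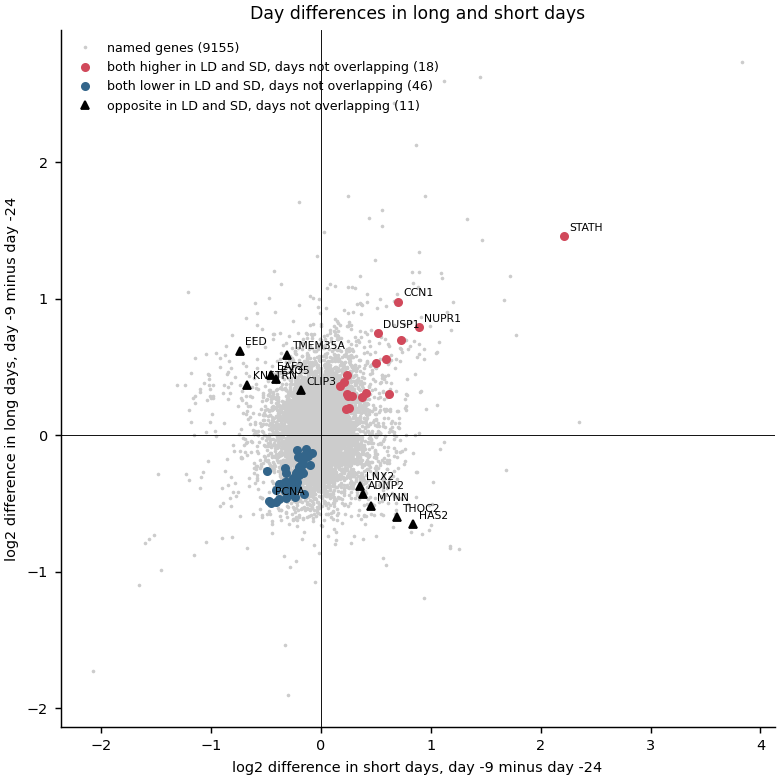
Day -9 minus day -24 difference (log2) in SD (horizontal) and LD (vertical) of 9155 named genes, 1 grey point each. Larger marks are probe sets whose day groups do not overlap in both photoperiods: 18 higher in both (red), 46 lower in both (blue) and 11 in opposite directions (black triangles). The symbol EED is given to many probe sets of differing values in the annotation, so its mark is not read as that gene.

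Among genes apart in both photoperiods, chosen for naming after their values were seen, NUPR1, a stress-induced chromatin protein, was at 9.93, 10.28 and 9.67 against 10.77, 10.75, 10.79 and 10.70 in LD, a difference of 0.79, and of 0.89 in SD. Genes that lay in opposite directions included EXO5, a DNA repair nuclease, at 0.41 in LD and -0.41 in SD, and KNSTRN, of the mitotic spindle, at 0.37 and -0.67. A dim probe set of HAS2, which makes hyaluronan, was at -0.65 and 0.84, while the brightest probe set of that gene was at -0.04 and -0.14. EXO5 was at 7.09, 7.17 and 7.22 against 7.46, 7.65, 7.46 and 7.70 in LD. The opposite directions were part of how these genes were chosen.

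**Figure D5:**
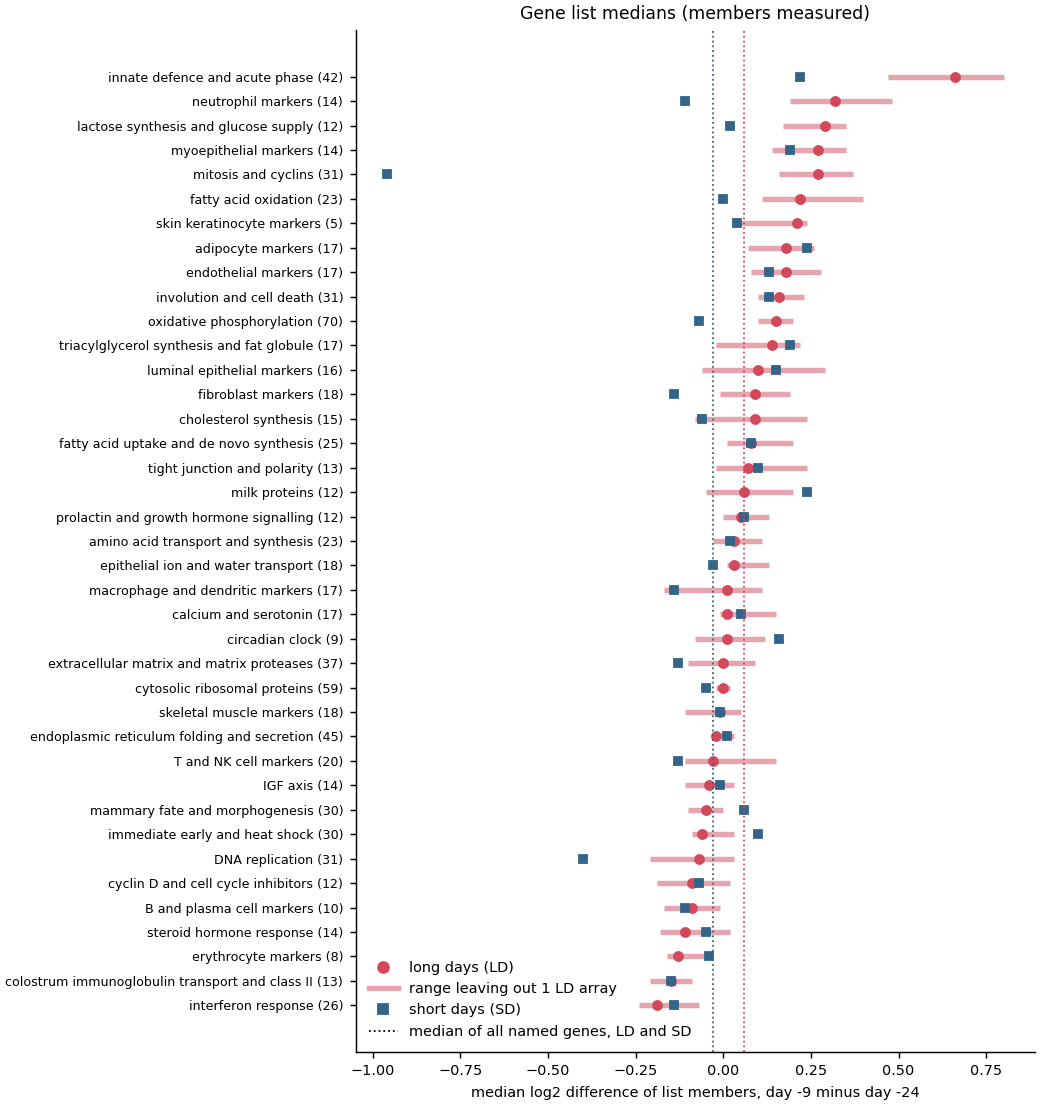
Median day -9 minus day -24 difference (log2) of 39 gene lists in LD and in SD, with the range in LD when each LD array was left out in turn; dotted lines mark the medians over all named genes (0.06 in LD, -0.03 in SD). Innate defence stands highest in LD at 0.66, and mitosis and cyclins are at 0.27 in LD against -0.96 in SD.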

How the data were processed

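RNA of mammary biopsies (RIN above 7.0, 2 µg of total RNA per the labels' protocols) was hybridised to 1-colour Affymetrix bovine arrays. The deposited values are log2 signals that the authors made by RMA, per the submitters' processing notes; the software and its version are not given in the sources used here. RMA subtracts background and equalises the distribution of the arrays, so a shift shared by most genes cannot be seen in these values. Of 24128 probe sets, 112 controls were left out. GEO's platform annotation gave 1 gene symbol to 13292 probe sets, several to 86 and none to 10638.

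Group means of all 14 arrays were fitted with limma 3.58.1 in R 4.3.3, with Benjamini-Hochberg adjustment over 24016 probe sets, a threshold of 0.05 and 95% intervals; the script was tested on simulated data. The spread is shared by all 4 groups, and precision is limited by how many arrays there are. In the lists, the fixed set and the background over named genes, a gene was represented by its probe set of highest mean. Genes named by p or by size were shown by their probe set of smallest p or largest difference, even where another was brighter. A list score is the mean of its members after centring each on all arrays. Named genes were the 12 of smallest p in each direction among probe sets of mean at or above the lower quartile, the 8 of largest difference in each direction without overlap, up to 4 members of smallest p from each list, and a fixed set of milk, hormone and marker genes. The members, lists and rule were chosen with earlier results of these data known. Alternatives were other normalizations, filters, covariates, blocks and sets of arrays.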

Additional observations from a re-analysis of the deposited data

Results flagged for a closer look

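Among the 4 arrays of LD day -9, 1 array stood far from the others (a gap beyond Dixon's 95% critical value for 4 samples) for 12 of 239 groups of values examined, and chance marks about 1 in 20 groups. Replicate 4 was low for NAA25, at 6.38 against 6.98 to 7.02, for the brighter probe set of ID2, at 7.95 against 9.02 to 9.12, and for IGF1, at 4.33 against 6.23 to 6.53. It was high for ADIPOR2, at 7.23 against 6.42 to 6.46, and for AHSP, at 5.91 against 5.21 to 5.30.

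Replicate 3 was high for STATH, at 7.35 against 6.12 to 6.26, and for MUC1, at 10.49 against 10.22 to 10.25. It was low for SLC27A1, at 6.55 against 7.00 to 7.04, and for KRT19, at 12.33 against 12.72 to 12.79. Replicate 2 was low for EBP, at 9.96 against 10.42 to 10.50, for PLVAP, at 7.97 against 8.49 to 8.58, and for XDH, at 11.89 against 12.10 to 12.14.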

How the results depend on the processing

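No setting called a probe set in LD at an adjusted p of 0.05. The number at an unadjusted p under 0.05, 1795 as reported, was 1009 among probe sets of mean at or above the median, 1153 without both arrays apart on the principal components and 998 with the luminal marker covariate, and it ran from 924 (without LD day -24 replicate 1) to 2593 (without LD day -24 replicate 2) as arrays were left out. For LD change minus SD change the 997 became 520 under the same filter, 469 without both arrays of low signal, and 430 to 1728 as arrays were left out, lowest without SD day -24 replicate 3 and highest without SD day -24 replicate 2. A replicate block gave 1234 and 676; same-numbered LD arrays correlated in their deviations at 0.33, 0.19 and -0.31, so the numbers do not show a pairing, and 1 of the 3 LD numbers was its own best match. Of the 200 named probe sets, 18 changed sign in some of 27 settings and 0 passed the adjusted threshold in any (lowest 0.192). The causes were not tested. The number of arrays limits the precision, and signals near the lower quartile of 4.55 lie near background.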

Other observations

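Secretory machinery lay near 0 in LD. Of 45 genes of endoplasmic reticulum folding and secretion 21 lay above 0 with a median of -0.02, and of 23 genes of amino acid transport and synthesis 13 did, with a median of 0.03; neither list had a member at an unadjusted p under 0.05. Cytosolic ribosomal protein genes had a median of 0.00 over 59 members, and RPS28 (0.30) was the member with an unadjusted p under 0.05. Epithelial ion and water transport genes had a median of 0.03 over 18 members, with KCNE4 and KCNK1 (0.38), a potassium channel, at an unadjusted p under 0.05. Immediate early and heat shock genes had a median of -0.06 over 30 members, with CCN1 and DUSP1 higher and HSP90AA1 (-0.22), a cytosolic chaperone, lower.

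Other cell types had medians of -0.03 for 20 T and NK cell markers, -0.09 for 10 B and plasma cell markers, 0.09 for 18 fibroblast markers, -0.01 for 18 skeletal muscle markers, -0.13 for 8 erythrocyte markers and 0.21 for 5 skin keratinocyte markers. The T and NK cell score was -0.52 in LD day -9 replicate 3, the lowest of the 7 LD arrays, where the neutrophil and B cell scores (-0.32 and -0.40) were lowest too.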
